A study of Mus musculus with 12 samples.

Results

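The p53 target genes described here are 10 genes that the transcription factor p53 (gene symbol Trp53) is known to activate directly: Cdkn1a, Ccng1, Mdm2, Sesn1, Trp53inp1, Zmat3, Phlda3, Bax, Bbc3 and Pmaip1. They were found by gene symbol in both tables of comparison results, 10 of 45706 genes listed for blastocysts and 10 of 13009 listed for embryonic stem (ES) cells, and all 10 had an adjusted p-value in both. The study set Dis3L KO against Dis3L WT mouse material, where Dis3l encodes a nuclease of the cytoplasmic RNA exosome. Its 12 samples form 4 groups of 3: KO blastocysts and WT blastocysts, each sample a single embryo collected 96 h after hCG injection of the mother, and KO ES cells and WT ES cells, lines derived from blastocysts and grown with LIF on inactivated mouse embryonic fibroblasts (feeder cells). The labels give no strain, no description of the KO allele and no number of separate ES cell lines, so p-values measure the spread between these samples, which in ES cells may be technical.

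p53 is kept low in unstressed cells by MDM2, a ubiquitin ligase that marks it for degradation and that p53 itself switches on, which closes a feedback loop. When DNA damage or another stress releases p53, its targets slow the cell cycle, adjust metabolism and repair, or start apoptosis through proteins of the BCL2 family at the mitochondrion. Mouse ES cells and early embryos are known to express p53 at high levels, with much of it inactive.

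The tables give the authors' own comparison and no value per sample, and they do not say which group was divided by which. The group in which a higher level gives a positive deposited log2 fold change is called the numerator side below, and the other the denominator side. Neither was assigned to KO or WT. Because a deposited mean adds up the reads of all libraries, each read weighted by its library's depth, the reads of a gene in each library could be solved from its mean. For the 10 targets this gave exactly 1 solution in both tables, from 3 libraries on each side in blastocysts and 2 on each side in ES cells, although the labels list 6 ES cell samples. Libraries are numbered within a side in order of falling size factor (the relative depth used to normalise them), and such a number names no sample of the labels. Levels below are normalised reads, that is reads divided by the size factor, and log2 fold changes of the authors' deposited table are given ± their standard error (SE).

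Size factors ran from 0.695 to 1.62 in blastocysts and from 0.759 to 1.25 in ES cells. In blastocysts 96.8% of the recovered read numbers above 0 were even, as they are when both mates of a read pair are counted, so separate fragments may be fewer than reads. Dis3l had 26, 8 and 0 reads in the numerator and 10, 4 and 8 in the denominator libraries of blastocysts, and 14 and 8 against 39 and 39 reads in ES cells. In the authors' deposited table it stood at 0.28 ± 1.91 (log2 fold change ± SE, adjusted p = 0.997) in blastocysts and −0.88 ± 0.33 (adjusted p = 0.445) in ES cells, so it did not separate the sides in blastocysts, and no side was named from it. In blastocysts the trophectoderm keratins Krt8 and Krt18 had means of 5505 and 7678 normalised reads, and the lowest of the 8 trophectoderm markers was Tead4 at 336. The 8 pluripotency markers ran from 82.8 (Sox2) to 1751 (Dppa5a), with 265 for Pou5f1 and 218 for Nanog, genes of the inner cell mass. All 8 pluripotency markers were present in ES cells (Pou5f1 962, Nanog 527, Sox2 485). Of 10 fibroblast genes, 10 were present in ES cells, while 7, among them Col1a1, Col1a2, Col3a1 and Dcn, were listed at 0 in blastocysts. In bulk RNA, fewer cells of a type and less RNA per cell cannot be told apart.

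Some of the 10 genes hold a match to the p53 site next to a start, and these matches are shown because p53 acts on its direct targets through such sites. RefSeq promoter windows (GRCm38.p6, 250 bases before to 50 after a gene start) were used for 7 of the 10 genes, 11 windows in all. None was used for Trp53inp1, Zmat3 and Pmaip1. The p53 full-site consensus, 2 adjacent half-sites of 10 bases with no spacer, was searched with the C and G of each CNNG core required and at most 3 mismatches. The consensus reads the same on both strands, so a single pass covers both. Of all 32851 windows, 1.38% held such a match and 0.067% a match with at most 1 mismatch. Among the targets, 4 genes held a match, each upstream of a start, printed here 5′ to 3′ on the gene's strand with the 20 bases of the match in capitals and 20 bases on either side in lower case.
Cdkn1a: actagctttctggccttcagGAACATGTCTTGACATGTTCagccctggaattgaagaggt
Ccng1: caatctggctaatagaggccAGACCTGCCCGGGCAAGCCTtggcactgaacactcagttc
Sesn1: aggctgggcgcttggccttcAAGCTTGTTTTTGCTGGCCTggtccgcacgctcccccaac
Bbc3: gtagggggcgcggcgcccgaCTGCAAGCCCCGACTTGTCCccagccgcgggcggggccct
The printed stretches lie at chr17:29090908-29090967 on the plus strand (Cdkn1a), chr11:40755442-40755501 on the minus strand (Ccng1), chr10:41887246-41887305 on the plus strand (Sesn1, at an annotated start inside the gene) and chr7:16309466-16309525 on the plus strand (Bbc3). The matches begin 51, 195, 173 and 97 bases before the start of their own window, in that order, with 1 mismatch in Cdkn1a and Ccng1 and 3 in Sesn1 and Bbc3. Here start means the gene start that the window surrounds. Cdkn1a, Sesn1 and Bbc3 also had windows at other starts, which held no match at this limit. A match describes the letters only. The windows of Mdm2, Bax and Phlda3 held no match at this limit, and known p53 sites can lie outside such a window, as that of Mdm2 in its first intron does.

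In blastocysts, 0 of the 10 targets passed an adjusted p-value of 0.05 in the Wald test of the authors' deposited table, where 0.0986% of 15209 tested genes did. Without adjustment 2 of 10 had a p-value under 0.05, Ccng1 and Zmat3, both lower on the numerator side, against 6.21% of all tested genes (3.53% lower and 2.68% higher). Of the 10 deposited log2 fold changes, 7 were negative, with a median of −0.43, while 51.7% of all tested genes were negative with a median of −0.04. Ccng1 and Zmat3 had the largest sizes of change, and Mdm2, Sesn1 and Bax had positive values. The median depended on single libraries: from the recovered reads it was −0.41, and it became −1.21 without numerator library 2 and 0.0026 without numerator library 3. Without denominator library 1 it became −0.12.

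**Figure D1:**
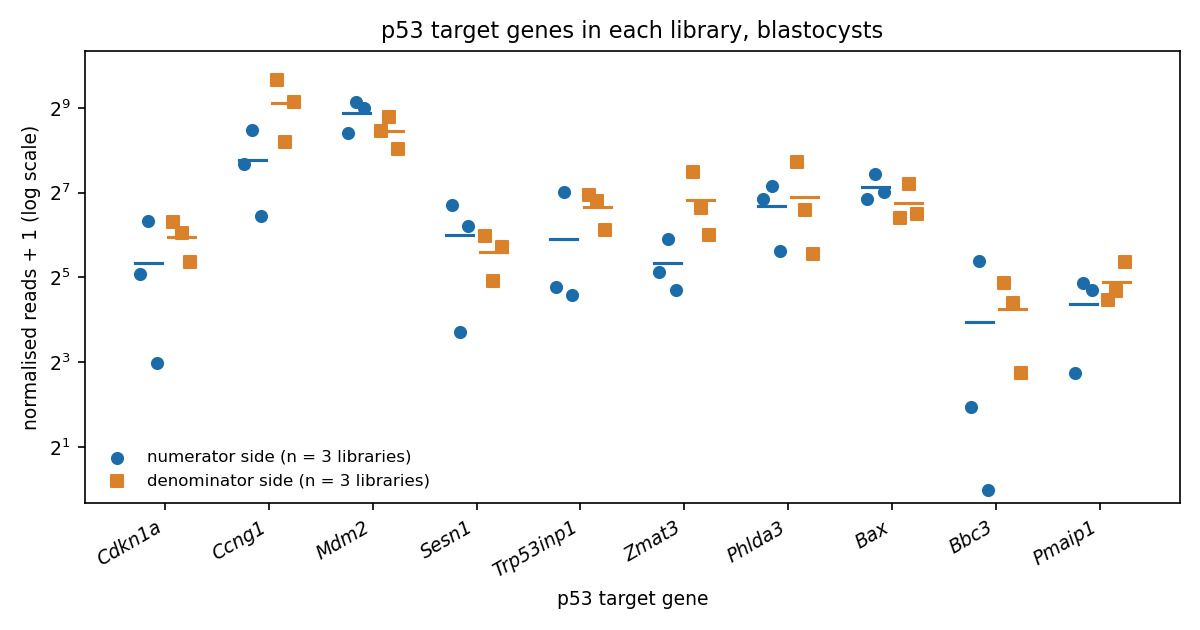
Level of each p53 target gene in each of the 6 blastocyst libraries, as normalised reads plus 1 on a log axis, with circles for the 3 numerator and squares for the 3 denominator libraries and a bar at the mean of each side. Zmat3 is the gene whose sides do not overlap, and numerator library 2 reaches the denominator levels in Cdkn1a, Trp53inp1 and Bbc3 while numerator library 3 does not.

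Cdkn1a (chromosome 17, 29090979 to 29100722, plus strand; here and below as the blastocyst table gives it, GRCm38) encodes p21, the inhibitor of cyclin-dependent kinases through which p53 holds cells in G1. Its level was 32.8, 79.2 and 6.86 normalised reads in numerator libraries 1, 2 and 3 and 77.9, 64.7 and 40.3 in denominator libraries 1, 2 and 3. Numerator library 2 was the highest of all and numerator library 3 was far below all others, with 6 reads, so the sides overlapped. In the authors' deposited table Cdkn1a stood at −0.62 ± 0.91 (log2 fold change ± SE, adjusted p = 0.938). Part of the exons of Cdkn1a is shared with the annotated gene AC167363.2, so its reads could have been split.

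Ccng1 (chromosome 11, 40748552 to 40755311, minus strand) encodes cyclin G1, which recruits a phosphatase to MDM2 and is among the most sensitive p53 targets. Its level was 204, 355 and 86.8 in the numerator and 811, 290 and 558 in the denominator libraries. All numerator libraries but library 2 lay below every denominator library. The numerator mean was 215 ± 135 (SD, n = 3) and the denominator mean 553 ± 261, a ratio of 0.389. Its log2 fold change in the authors' deposited table was −1.36 ± 0.51 (95% interval −2.37 to −0.35). The Wald test p-value was 0.0081 before and 0.546 after adjustment, so the gene did not pass. From the recovered reads the log2 ratio was −1.36 and ran from −1.92 to −0.97 as each library was left out.

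Mdm2 (chromosome 10, 117688888 to 117710758, minus strand) is the feedback arm of the pathway. Its level was 337, 558 and 505 in the numerator and 350, 436 and 262 in the denominator libraries. The sides overlapped within a narrow range, the highest library being 2.13 times the lowest. Of the 10 genes Mdm2 had the smallest SE in blastocysts in the authors' deposited table, where its log2 fold change was 0.42 ± 0.37 (95% interval −0.31 to 1.14, adjusted p = 0.811).

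Sesn1 (chromosome 10, 41810574 to 41908424, plus strand) encodes sestrin 1, which restrains the growth kinase complex mTORC1 under stress. Its level was 104, 12.2 and 73.1 in the numerator and 61.8, 29.0 and 51.8 in the denominator libraries. The numerator side held both the highest and the lowest library, and without numerator library 1 the log2 ratio of the reads turned from 0.40 to −0.15. Sesn1 stood at 0.41 ± 0.87 (log2 fold change ± SE, adjusted p = 0.973) in the authors' deposited table.

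Trp53inp1 (chromosome 4, 11156431 to 11174379, plus strand) encodes a stress protein that acts with p53 in apoptosis and autophagy. Its level was 26.4, 128 and 22.9 in the numerator and 121, 111 and 69.1 in the denominator libraries. Numerator libraries 1 and 3 lay below all denominator libraries and numerator library 2 above them. Trp53inp1 stood at −0.77 ± 0.78 (adjusted p = 0.837) in the authors' deposited table. Without numerator library 2 the log2 ratio of the reads moved from −0.76 to −1.99.

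Zmat3 (chromosome 3, 32334792 to 32366014, minus strand) encodes a zinc finger protein that binds RNA and affects splicing and RNA stability. Its level was 34.3, 58.9 and 25.1 in the numerator and 177, 98.1 and 63.3 in the denominator libraries. This was the only target in blastocysts whose sides did not overlap, 1 of 10, where 11.1% of 4727 genes with recovered reads and a mean from 10 to 80 had sides apart (6.47% with the numerator side lower and 4.68% with it higher). The numerator mean was 39.4 ± 17.4 (SD, n = 3) against 113 ± 58.2, a ratio of 0.350, and the gap between the nearest libraries was small (58.9 against 63.3). Zmat3 had a log2 fold change of −1.52 ± 0.70 in the authors' deposited table, with a Wald test p of 0.0288 that became 0.744 on adjustment. From the reads the log2 ratio of Zmat3 was −1.49 and ran from −1.89 to −1.02 as each library was left out.

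Phlda3 (chromosome 1, 135766119 to 135769136, plus strand) encodes a small protein that competes with the kinase AKT for membrane lipids. Its level was 114, 142 and 48.0 in the numerator and 210, 95.9 and 46.0 in the denominator libraries, so each side held a high and a low library. Phlda3 stood at −0.22 ± 0.69 (log2 fold change ± SE) in the authors' deposited table. The log2 ratio of the reads turned from −0.21 to 0.51 without denominator library 1.

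The 3 targets of the BCL2 family start apoptosis: BAX opens the outer mitochondrial membrane, and the BH3-only proteins PUMA (Bbc3) and NOXA (Pmaip1) release it from its inhibitors. Bax (chromosome 7, 45461695 to 45466898, minus strand) had a level of 114, 173 and 128 in the numerator and 84.1, 146 and 89.2 in the denominator libraries. Bax varied little, with its highest library 2.05 times its lowest. Its log2 fold change in the authors' deposited table was 0.38 ± 0.53 (adjusted p = 0.930). Some exons of Bax are shared with the annotated gene Gm45808.

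Bbc3 (chromosome 7, 16309616 to 16318205, plus strand) was the target with the fewest reads in blastocysts, 112 over all libraries. Its reads were 4, 40 and 0 in the numerator and 46, 18 and 4 in the denominator libraries. The count of 0 in numerator library 3 leaves room for an expected number of up to 3 separate fragments. In reads the limit is higher where both mates of a pair are counted. Bbc3 stood at −0.33 ± 1.64 (log2 fold change ± SE) in the authors' deposited table. The log2 ratio of the reads ran from −2.98 without numerator library 2 to 0.25 without numerator library 3. Pmaip1 (chromosome 18, 66458604 to 66465550, plus strand) had 8, 28 and 22 reads in the numerator and 34, 22 and 28 in the denominator libraries. Numerator library 1 was the low one, and the log2 fold change in the authors' deposited table was −0.54 ± 1.09. The sides overlapped in both genes.

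Single embryos of the same side differed widely in these genes. Numerator library 3 was the lowest of the 6 libraries in 5 of the 10 targets (Cdkn1a, Ccng1, Trp53inp1, Zmat3 and Bbc3), whereas it was lowest in 20.9% of those 4727 genes with a mean from 10 to 80, a range that Ccng1, Mdm2, Phlda3 and Bax exceed. Numerator library 2 was the highest in 5 of the 10 (Cdkn1a, Mdm2, Trp53inp1, Bax and Bbc3), against 12.8% of those genes. Denominator library 1 was highest in 3 (Ccng1, Zmat3 and Phlda3), against 18.5%. The median deviation of the 10 targets from their own means was −1.12 on the log2 scale in numerator library 3, against −0.02 over those 4727 genes, and 0.92 in denominator library 1, against 0.25. Mdm2, Sesn1, Bax and Pmaip1 did not share the low level of numerator library 3, where Mdm2 and Sesn1 stood second among the 6 libraries.

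**Figure D2:**
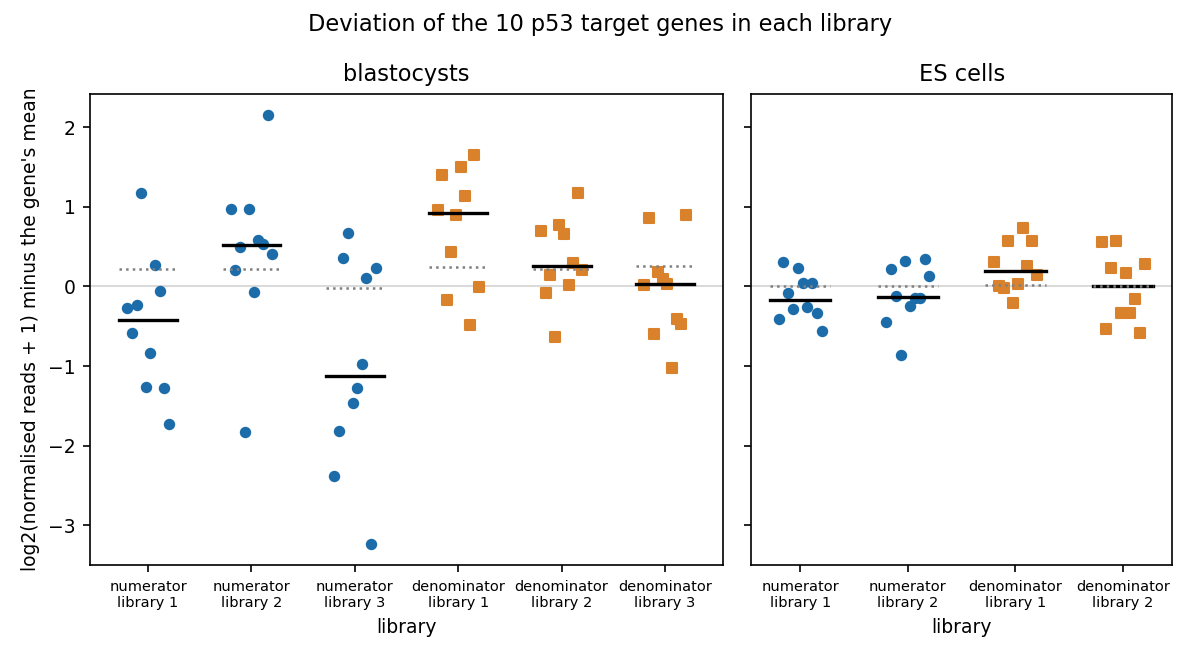
Log2 of normalised reads plus 1 of each p53 target gene minus its mean over the libraries, for each library of both materials, with a solid bar at the median of the 10 genes and a dotted bar at the median of all genes with recovered reads. The median of the 10 genes is −1.12 in numerator library 3 of blastocysts and 0.92 in denominator library 1, while all ES cell medians lie between −0.17 and 0.20.

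In ES cells too, 0 of the 10 targets passed in the Wald test of the authors' deposited table, where 0.261% of 10739 tested genes did. Without adjustment 3 of 10 had a p-value under 0.05, against 5.62% of all tested genes. Cdkn1a and Sesn1 were lower on the numerator side (3.42% of tested genes were lower by that rule) and Trp53inp1 was higher (2.21% were higher). Of the deposited log2 fold changes 8 of 10 were negative, with a median of −0.17, while 50% of all tested genes were negative with a median of −0.00011. The 2 positive ones were Trp53inp1 and Ccng1. The sides did not overlap in 6 of the 10, in 4 with the numerator lower (Cdkn1a, Mdm2, Sesn1, Pmaip1) and in 2 with it higher (Ccng1, Trp53inp1), but with 2 libraries a side this holds for 40.8% of the 9707 tested genes with recovered reads and a mean from 10 to 350 (20.7% lower and 20% higher), a range that Ccng1, Mdm2 and Trp53inp1 exceed. The deposited ES cell fold changes appear shrunken towards 0, and those of Cdkn1a and Sesn1 were smaller in size than the log2 ratios of their reads.

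**Figure D3:**
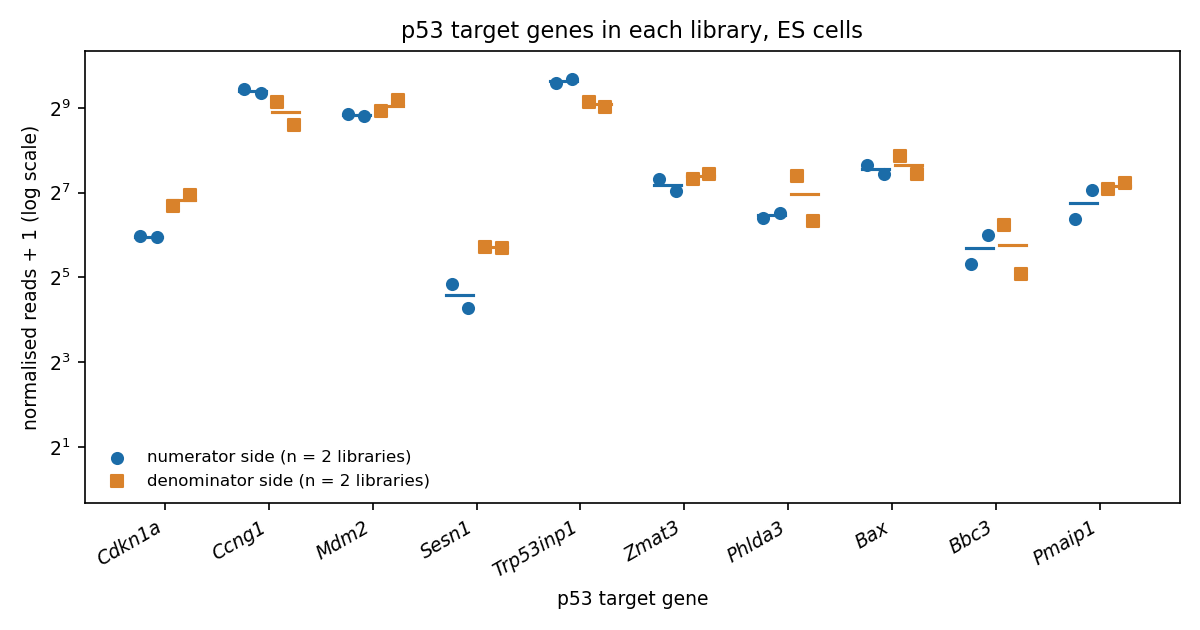
Level of each p53 target gene in each of the 4 ES cell libraries, as normalised reads plus 1 on a log axis, with circles for the 2 numerator and squares for the 2 denominator libraries and a bar at the mean of each side. The sides lie apart in Cdkn1a, Mdm2, Sesn1 and Pmaip1, with the numerator lower, and in Ccng1 and Trp53inp1, with the numerator higher. In Pmaip1 the nearest libraries are almost level. Sides lie apart in 40.8% of the 9707 background genes.

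Cdkn1a had 62.3 and 60.6 normalised reads in numerator libraries 1 and 2 and 103 and 123 in denominator libraries 1 and 2. Both numerator libraries lay well below both denominator libraries. The numerator mean was 0.545 times the denominator mean, a log2 ratio of −0.87 that ran from −0.99 to −0.73 with each library left out. In the authors' deposited table the log2 fold change was −0.66 ± 0.29, with a Wald test p of 0.0227 that became 0.693 on adjustment.

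Sesn1 had 27.9 and 18.4 normalised reads in the numerator and 51.3 and 51.2 in the denominator libraries. It was the target with the fewest reads in ES cells, 156 in all, and its numerator mean was 0.452 times the denominator mean. The log2 fold change in the authors' deposited table was −0.67 ± 0.33 (Wald test p = 0.0390, adjusted p = 0.841). From the reads the log2 ratio was −1.11, and it ran from −1.43 to −0.85 as each library was left out. In blastocysts the same gene had a positive value, on a much wider error.

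Trp53inp1 had 770 and 815 normalised reads in the numerator and 566 and 520 in the denominator libraries. The numerator mean was 1.46 times the denominator mean, and each side spread by less than the gap between them. Its log2 fold change in the authors' deposited table was 0.49 ± 0.21, with a Wald test p of 0.0197 and, on adjustment, 0.673, the smallest of the 10 genes. Ccng1 had 695 and 652 normalised reads in the numerator and 562 and 388 in the denominator libraries. Its denominator libraries differed from each other by more than the gap between the nearest libraries of the sides. The log2 fold change of Ccng1 in the authors' deposited table was 0.43 ± 0.23 (adjusted p = 0.928). Without denominator library 2 the log2 ratio of the Ccng1 reads moved from 0.50 to 0.26.

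Mdm2 had 462 and 450 normalised reads in the numerator and 484 and 576 in the denominator libraries, levels within 1.28 times of each other. Its log2 fold change was −0.19 ± 0.22 (95% interval −0.62 to 0.24) in the authors' deposited table. Zmat3 was as even, with 159 and 130 against 158 and 174 normalised reads and a log2 fold change of −0.16 ± 0.26 in the authors' deposited table. For Phlda3 the levels were 83.8 and 90.9 in the numerator and 168 and 79.2 in the denominator libraries. Denominator library 1 alone was high in Phlda3, and without it the log2 ratio of the reads turned from −0.50 to 0.14. The log2 fold change of Phlda3 in the authors' deposited table was −0.36 ± 0.30.

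Of the apoptosis genes, Bax and Bbc3 overlapped between the sides and Pmaip1 was narrowly apart. Bax had 199 and 174 normalised reads in the numerator and 230 and 173 in the denominator libraries. Bbc3 had 39.1 and 63.2 against 74.2 and 32.9. Pmaip1 had 82.2 and 133 against 134 and 148, so its nearest libraries were almost level. In the authors' deposited table the log2 fold changes were −0.09 ± 0.25 for Bax, −0.05 ± 0.32 for Bbc3 and −0.31 ± 0.28 for Pmaip1. For Bax and Bbc3 the sign of the log2 ratio of the reads turned without denominator library 1, to 0.11 and 0.62.

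**Figure D4:**
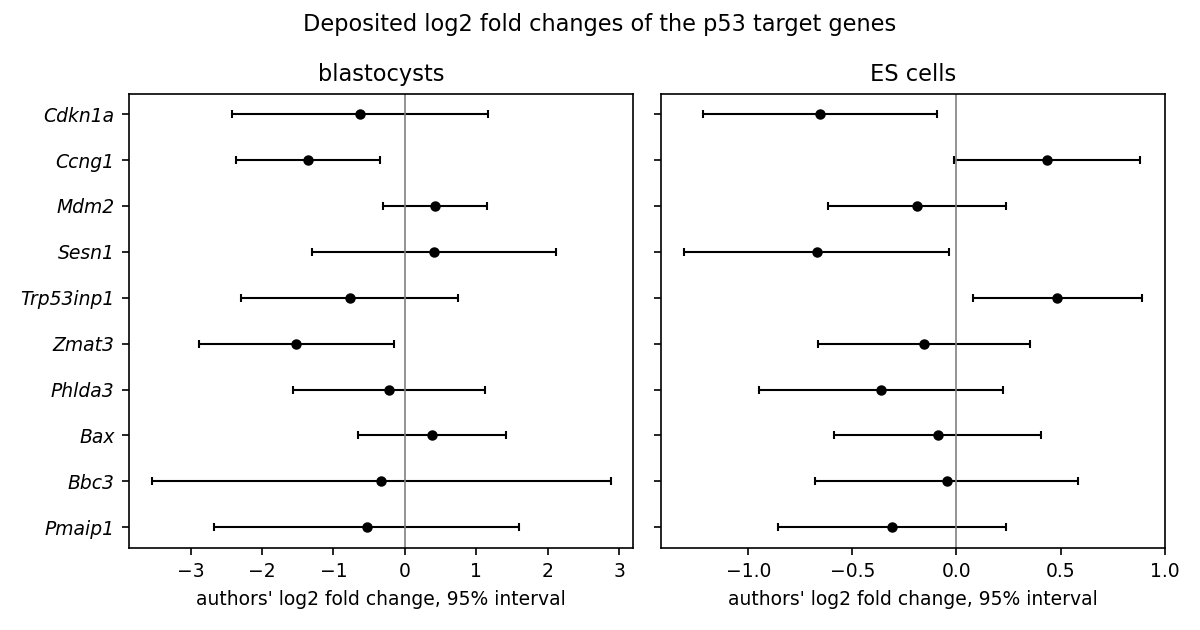
Log2 fold change of each p53 target gene in the authors' deposited tables, with its 95% interval, for blastocysts on the left and ES cells on the right, whose horizontal axes differ in range. The intervals of Ccng1 and Zmat3 in blastocysts and of Cdkn1a, Sesn1 and Trp53inp1 in ES cells leave out 0, before any adjustment for the number of genes tested.

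Feeder fibroblast genes differed between the ES cell libraries. The summed level of the 9 fibroblast markers with recovered reads, of 10 listed, was 947 and 724 in the numerator and 870 and 2023 in the denominator libraries. Denominator library 2 held the excess: Col3a1 had 865 normalised reads there and 44.7 to 73.7 in the others, and Postn 131 reads against 3, 0 and 1. By Wald test p-values without adjustment, Col1a1 and Lum were under 0.05 in the authors' deposited table, both lower on the numerator side, against 3.42% of all tested genes. On adjustment 0 of the 10 markers passed. Denominator library 2 was also the highest of the 4 in Cdkn1a, Mdm2, Zmat3 and Pmaip1 (4 of 10 targets, against 30% of all genes with recovered reads). It was the lowest in Ccng1, Trp53inp1, Phlda3, Bax and Bbc3 (5 of 10, against 30.1%). The means of Ccng1, Mdm2 and Trp53inp1 exceed that range. Without denominator library 2 the log2 ratio was −0.73 in Cdkn1a, 0.49 in Trp53inp1 and −0.08 in Mdm2. Pluripotency markers were uneven too, and 8 of 8 had negative log2 fold changes in ES cells, with a median of −0.32 and 0 under an unadjusted p-value of 0.05. Over all tested genes 50% were negative. The summed level of the 7 of them with recovered reads was 3821 and 3102 in the numerator and 4857 and 4206 in the denominator libraries. The sides of this sum did not overlap, which holds for 40.8% of the 9707 single background genes in ES cells. Taken alone, Zfp42 and Dppa5a had sides apart, while Klf4, Nanog, Esrrb, Pou5f1 and Sox2 overlapped. Denominator library 1 was high in Pou5f1 (1448 against 758 to 832) and Zfp42 (603 against 161 to 192). The part of feeder RNA or of pluripotent cells in the target values was not tested. In blastocysts the lineage markers were uneven as well. Of the 6 primitive endoderm markers 4 had negative log2 fold changes in the authors' deposited table, with a median of −0.12, where 51.7% of all tested genes were negative. Gata6 stood at −0.77, Gata4 at −0.32, Sox17 at −0.16 and Pdgfra at −0.08, beside Foxa2 at 1.58 and Sox7 at 3.27. Sox7 alone had an unadjusted p-value under 0.05, with 278, 106 and 150 reads in the numerator and 0, 42 and 2 in the denominator libraries. Of the 8 pluripotency markers, Klf4 stood at −0.53, Dppa5a at −0.13, Zfp42 at −0.05, Sox2 at 0.03 and Esrrb at 0.003 in the authors' deposited table. The other 3, Tdgf1, Nanog and Pou5f1, had unadjusted p-values under 0.05, all lower on the numerator side. Their log2 fold changes were −1.75 ± 0.50, −1.93 ± 0.73 and −1.21 ± 0.48 (adjusted p = 0.205, 0.546 and 0.609, Wald test). Of the 8 trophectoderm markers 1 was higher and 2 were lower by the same rule, which 2.68% (higher) and 3.53% (lower) of all tested genes met, and 0 of the markers of the 3 lineages passed on adjustment. The part of the embryos' lineage make-up in the target levels was not tested.

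Across materials, 5 of the 10 targets had deposited log2 fold changes of opposite sign, against 49.3% of the 9744 genes tested in both tables. The direction of division is not stated for either material, so their numerator sides may be different genotypes. If they are, like signs stand for opposite changes and the differences below do not compare like with like. The difference between the deposited values was tested for each of those genes from the standard errors of both tables. Ccng1 differed most, with log2 fold changes of −1.36 (blastocysts) and 0.43 (ES cells) in the authors' deposited tables, a difference of −1.80 ± 0.56 (SE). Its p was 0.00141 in this Wald test of the difference and 0.337 on Benjamini-Hochberg adjustment, so it did not pass. Of the 10 targets 0 passed and 1 had an unadjusted p-value under 0.05, against 0.0924% and 5.65% of the genes tested. Zmat3 followed, with a difference of −1.36 ± 0.74 (adjusted p = 0.910). Cdkn1a had like values in both, −0.62 and −0.66, a difference of 0.03 ± 0.96 whose error leaves room for large differences. The ES cell values appear shrunken and the libraries were made in different ways, so sizes are not comparable.

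Levels per kilobase of exon put the targets in an order that was partly shared. In blastocysts Ccng1 came first with a mean of 109 normalised reads per kb, followed by Mdm2 (80.3), Bax (77.6) and Phlda3 (70.2). These 4 could not be ranked against each other, since each neighbour was above the next in only 2, 3 and 4 of 6 libraries, but Phlda3 was above Cdkn1a (14.2) in 6 of 6. Below that step Cdkn1a, Sesn1 (13.9), Trp53inp1 (12.3), Pmaip1 (8.85), Bbc3 (7.67) and Zmat3 (6.65) overlapped, with neighbours in order in 2 to 4 of 6 libraries. Neighbours from Bax to Pmaip1 kept their order in 2 or 3 of the 4 ES cell libraries. Ccng1 (163) was above Bax (123) there in 4 of 4, followed by Trp53inp1 (103), Mdm2 (97.0), Phlda3 (67.7) and Pmaip1 (45.5). Pmaip1 was above Bbc3 (24.6) in 4 of 4 libraries, and Bbc3 and Cdkn1a (24.5) did not differ beyond their spread. Cdkn1a was above Zmat3 (13.6) and Zmat3 above Sesn1 (9.35), each in 4 of 4. Trp53inp1 was thus among the higher targets in ES cells (place 3) and among the lower ones in blastocysts (place 7).

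Among the other genes of the pathway, given as 4 lists, 0 passed on adjustment in the Wald test of either table. Of 14 genes upstream of p53, 11 were tested in blastocysts and 10 in ES cells, and 0 had a p-value under 0.05 in the Wald test, adjusted or not. The medians of their log2 fold changes were 0.26 and 0.03. Trp53 itself had 168, 152 and 149 normalised reads in the numerator and 214, 261 and 213 in the denominator libraries of blastocysts, with sides that did not overlap. Sides were apart in 11.1% of the 4727 blastocyst genes used as background above (6.47% with the numerator lower). The means of those genes lie below that of Trp53. Trp53 stood at −0.55 ± 0.41 (log2 fold change ± SE, adjusted p = 0.811) in the authors' deposited table. In ES cells Trp53 had 143 and 94.8 against 139 and 155 normalised reads, sides that overlapped, and −0.23 ± 0.27 in the authors' deposited table. Mdm4, which holds p53 inactive beside MDM2, had 457, 258 and 144 against 168, 292 and 193 in blastocysts and 712 and 594 against 628 and 819 in ES cells, overlapping in both.

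Of 39 other p53 targets, 35 were tested in blastocysts, 22 of them with a negative log2 fold change and a median of −0.29, and 37 in ES cells, 24 negative with a median of −0.09. Over all tested genes 51.7% and 50% were negative, in that order. On adjustment 0 passed in the Wald test. At an unadjusted p under 0.05, 2 were lower in blastocysts, where 6.21% of all tested genes met that rule, and 1 was higher and 1 lower in ES cells, where 5.62% did, so these counts were near the background. In blastocysts these were Sfn, which encodes the cell-cycle protein 14-3-3 sigma, at −1.39 ± 0.60 in the authors' deposited table, and the lipase gene Abhd4 at −1.02 ± 0.46. Abhd4 had 106, 87.3 and 126 normalised reads in the numerator and 223, 172 and 253 in the denominator libraries, without overlap. Sides were apart in 11.1% of the 4727 background genes (6.47% with the numerator lower), whose means lie below that of Abhd4. Abhd4 was named for its unadjusted p-value, so its lack of overlap adds no separate evidence. In ES cells they were Tigar, a regulator of glycolysis, at 0.57 ± 0.28, and the transcription factor gene Foxo3 at −0.50 ± 0.22 in the authors' deposited table. Tigar had 144 and 119 against 76.1 and 82.1 normalised reads and Foxo3 364 and 436 against 563 and 627, both without overlap. In ES cells 40.8% of the 9707 background genes had sides apart, and the mean of Foxo3 lies above theirs. Tigar and Foxo3 too were named for their unadjusted p-values.

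Among 17 cyclins, cyclin-dependent kinases and their inhibitors, beside which p21 acts, 14 were tested in blastocysts (9 negative, median −0.49) and 16 in ES cells (10 negative, median −0.02), and 0 passed, where 51.7% and 50% of all tested genes were negative. In each material 2 had an unadjusted p-value under 0.05, against 6.21% of all tested genes in blastocysts and 5.62% in ES cells. In blastocysts these were Cdkn1c, which encodes the inhibitor p57, and the G1 cyclin gene Ccne1, both lower on the numerator side. Cdkn1c had 0 reads in all numerator libraries and in denominator library 1, with 32 and 22 in the other two. Ccne1 had 81.4, 46.7 and 38.9 normalised reads in the numerator and 227, 42.4 and 176 in the denominator libraries, which overlapped. In ES cells they were 2 cyclin D genes, in opposite directions: Ccnd3 had 63.9 and 59.3 against 115 and 162 normalised reads, and Ccnd1 had 395 and 440 against 313 and 224. In the authors' deposited table Ccnd3 stood at −0.88 ± 0.29 (adjusted p = 0.215, Wald test) and Ccnd1 at 0.54 ± 0.24 (adjusted p = 0.694).

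Among 22 genes of the BCL2 family and the caspases, 19 were tested in blastocysts (9 negative, median 0.17) and 16 in ES cells (5 negative, median 0.17), and 0 passed. Over all tested genes 51.7% and 50% were negative. Without adjustment 2 had a p-value under 0.05 in blastocysts and 0 in ES cells, against 6.21% and 5.62% of all tested genes. Both encode BH3-only proteins, as Bbc3 and Pmaip1 do. Bad had 18.6, 22.3 and 13.7 normalised reads in the numerator and 111, 29.0 and 121 in the denominator libraries, without overlap. Sides were apart in 11.1% of the 4727 blastocyst background genes (6.47% with the numerator lower). Bad was named for its unadjusted p-value, so its lack of overlap adds no separate evidence. Bad stood at −2.26 ± 0.82 in the authors' deposited table (adjusted p = 0.491, Wald test). Hrk went the other way, with 84, 12 and 18 reads in the numerator and 0, 6 and 0 in the denominator libraries and 3.82 ± 1.68 in the authors' deposited table (adjusted p = 0.710).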

How the data were processed

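RNA was sequenced from 12 samples. Blastocyst libraries came from single embryos by Tn5 tagmentation of cDNA and ES cell libraries from rRNA-depleted RNA with a stranded kit, per the labels' protocols. The submitters' processing notes name STAR 2.4.0b, featureCounts, Subread 2.0.1, DESeq2 1.34.0 and GRCm38, without their roles; the strand setting of the counting is not given in the sources used here. Per the file headers, the signal column is the authors' mean of normalised counts, the 2 log2 columns are the authors' fold change and its standard error, the score column the authors' Wald statistic and the p-value columns the authors' p-value and adjusted p-value. The 2 tables hold no values per sample, so the authors' own test was the main result and no count model was fitted.

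Reads per library were solved from the deposited means. Steps came from the lowest means (blastocysts) or recurring differences of means (ES cells). Blastocyst solutions also had to give the deposited log2 fold change within 3e-05 at the deposited standard error; 98.7% of 4788 genes with a mean from 10 to 80 and 100% of 12137 ES cell genes with a mean of at most 350 each had a single solution. On simulated reads 100% of 197 blastocyst and 100% of 200 ES cell genes were recovered. Simulated means were at most 80 in blastocysts and under 350 in ES cells. This leaves out Ccng1, Mdm2, Phlda3 and Bax in blastocysts and Ccng1, Mdm2 and Trp53inp1 in ES cells, whose means are higher. The difference test between materials was simulated on the genes tested in both tables. In it 200 genes with a true log2 difference of 3 were drawn from those with a blastocyst SE under 1, and 86.5% were called. Bbc3 and Pmaip1 had larger SEs, and no target differed by as much as 3. Log2 ratios of reads used a pseudocount of 1. Sides in ES cells were the split that followed the deposited fold changes (Pearson's r across genes 0.954, next split 0.286). Exon lengths and overlaps came from GENCODE M21 on GRCm38.

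All 10 targets are named; of the other pathway lists, Trp53, Mdm4 and members with an unadjusted p-value under 0.05 are named. The members and lists were chosen with earlier results of these data known. Calculations used Python 3.11.15, numpy 2.4.6, scipy 1.17.1 and numba 0.67.0.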

Additional observations from a re-analysis of the deposited data

How the results depend on the processing

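The count of called targets was 0 in both materials with a threshold of 0.01, with p-values adjusted over every gene that has one, with a mean of at least 50, with autosomal genes only and with statistics divided by their robust SD. The smallest adjusted p-value of any target under these was 0.505 in blastocysts and 0.339 in ES cells. By an unadjusted p-value under 0.05 the counts are 2 and 3. From the recovered reads the median log2 ratio in blastocysts, −0.41, ran from −1.21 to 0.0026 as each library was left out. That in ES cells, −0.21, ran from −0.32 to −0.079. The medians of the deposited log2 fold changes were −0.43 and −0.17. A minimum mean of 50 and centring on all genes moved each median by less than the spread between libraries. The log2 ratio of the reads did so too, but this is no separate check. Blastocyst reads were accepted only where they gave the deposited log2 fold change, and the ES cell sides were chosen to follow the deposited values. With a library left out, 3 of 10 targets changed sign in each material: Sesn1, Phlda3 and Bbc3 in blastocysts and Phlda3, Bax and Bbc3 in ES cells. No paired analysis was possible because the tables hold no values per numbered sample and the recovered libraries carry no replicate number. Counting error is largest for Bbc3 and Pmaip1 in blastocysts, with 112 and 142 reads, the fewest of the targets; its part in their standard errors was not separated from the spread between embryos.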
